A study of Mus musculus with 9 samples.

Results

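Mesenchymal stem cells act on immune cells through surface ligands, enzymes and secreted proteins, and 9 genes for such products are described here in cultured adipose-derived stem cells (ASCs): Cd274, Pdcd1lg2, Ido1, Nos2, Ptges, Hgf, Tnfaip6, Lgals1 and Lgals9. They were chosen by name for this known role, out of 54532 genes in the count table. All 9 had enough reads to be tested, among 16526 genes that did. The filter level was 0.385 CPM, relative to the unscaled library total. All other CPM values are the reads of a gene relative to its TMM-scaled library total. Ido1 and Pdcd1lg2, however, passed through their Sub-ASC libraries alone, above the filter level in 3 libraries of that depot and in 0 of the other 6. For these genes the filter itself thus required a difference. Nos2 was above the filter level in 3 Sub-ASC, 2 Ab-ASC and 1 PVASC libraries.

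In a study of how PVASCs give rise to vascular cells, this experiment compared the transcriptomes of ASCs between fat depots. Cells came from C57/BL6 mice, out of the subcutaneous depot (Sub-ASC), the abdominal depot (Ab-ASC) or the fat around arteries (PVASC), and the only labelled difference between the groups is this tissue. All were grown and passaged in the same stem cell culture medium, which held leukemia inhibitory factor and FGF, with no immune stimulus named. The study gives a range of passages for the sequenced cells and not the passage of each library. Bulk RNA was sequenced from 3 libraries a depot, 9 in all. Sex, age and the number of mice are not given in the sources used here, and nothing says that the libraries of a depot came from separate mice or cultures, so that p-values measure only the spread between these libraries, which may be technical.

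Library totals ran from 20524173 to 29881036 counted reads, and 3 reads in a library corresponded to 0.0917 to 0.161 CPM. Within a depot, pairs of libraries differed beyond sampling noise (chi-square per degree of freedom 2.79 to 26.5), most in pairs with Ab-ASC replicate 1, and 0 libraries looked like a repeat deposit. The label was checked against defining markers: 9 of 9 adipose stromal genes had reads in each depot, with summed levels of 18120 to 19251 CPM in Sub-ASCs, 6777 to 6929 in Ab-ASCs and 4773 to 4924 in PVASCs. Dcn, Col1a1 and Pdgfra led the Sub-ASC sum, and single markers went both ways. In PVASCs, 7 were called lower and 2 higher (Thy1 and Eng) than in Sub-ASCs, and 5 lower and 4 higher (Ly6a, Thy1, Eng and Cd34) than in Ab-ASCs. Of all tested genes, 70.4% and 56.9% were called in these comparisons. Each of the 12 macrophage and leukocyte markers also had reads in each depot. Their summed level was 362 to 370 CPM in Sub-ASCs, 358 to 463 in Ab-ASCs and 346 to 358 in PVASCs, with Lyz2 the highest of them in each depot, but 10 of the 12 were called higher in Sub-ASCs than in PVASCs and than in Ab-ASCs, as given beside Nos2 and Cd274 below. The 6 endothelial markers had reads in each depot and summed to 176 to 191, 63.7 to 66.2 and 764 to 768 CPM, and the 8 mesothelial markers to 1.64 to 2.58, 114 to 121 and 41.6 to 42.7 CPM, with Upk1b and Lrrn4 at 0 in Sub-ASCs. In bulk RNA, fewer cells of a type and less RNA per cell cannot be told apart.

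In mice, mesenchymal stem cells are known for switching on their inhibitory programme when interferon gamma acts together with TNF or interleukin-1, and in this species the nitric oxide made by Nos2 is the best known effector, whereas human cells rely more on tryptophan breakdown by IDO1. Surface PD-L1 and PD-L2 engage PD-1 on T cells. Prostaglandin E2, TSG-6, HGF and galectins act as secreted mediators on T cells and macrophages.

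The genes lie on 6 chromosomes of GRCm38 (mm10), the build whose GENCODE M21 annotation gave the listed start and end for 53548 of 54532 genes (98.2%), 8 of these 9 included. Cd274 and Pdcd1lg2 are neighbours on chromosome 19 with 22823 bases between them, and Nos2 and Lgals9 are neighbours on chromosome 11, on opposite strands, with 2719 bases between their 3′ ends. Of the 9 genes, 6 had a promoter entry in the RefSeq table used here (Cd274, Pdcd1lg2, Ptges, Hgf, Tnfaip6 and Lgals9), with 7 windows in all, each from 250 bases before to 50 bases after a transcription start. The Cd274 and Pdcd1lg2 windows are shown because both genes of this neighbouring pair were highest in Sub-ASCs, though Pdcd1lg2 had only 0.834 CPM there. Those of Lgals9 and Tnfaip6 are shown because they held a searched motif. Each is read 5′ to 3′ on the strand of its gene (GRCm38.p6), and capitals mark motif matches. The windows are chr19:29367188-29367487 (plus strand) for Cd274, chr19:29410669-29410968 (plus strand) for Pdcd1lg2, chr11:78984875-78985174 (minus strand) for Lgals9 and chr2:52037863-52038162 (plus strand) for Tnfaip6.
Cd274: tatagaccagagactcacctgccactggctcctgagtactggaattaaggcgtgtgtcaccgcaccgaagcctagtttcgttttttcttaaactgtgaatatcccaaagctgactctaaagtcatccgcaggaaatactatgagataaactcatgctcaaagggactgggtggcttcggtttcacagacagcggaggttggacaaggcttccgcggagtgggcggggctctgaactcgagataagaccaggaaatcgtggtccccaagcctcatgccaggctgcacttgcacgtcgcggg
Pdcd1lg2: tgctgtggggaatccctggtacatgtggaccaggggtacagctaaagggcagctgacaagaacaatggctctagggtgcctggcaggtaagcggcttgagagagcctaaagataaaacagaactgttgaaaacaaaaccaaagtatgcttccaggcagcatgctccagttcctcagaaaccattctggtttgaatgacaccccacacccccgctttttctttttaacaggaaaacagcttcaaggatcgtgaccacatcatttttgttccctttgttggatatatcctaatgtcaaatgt
Lgals9: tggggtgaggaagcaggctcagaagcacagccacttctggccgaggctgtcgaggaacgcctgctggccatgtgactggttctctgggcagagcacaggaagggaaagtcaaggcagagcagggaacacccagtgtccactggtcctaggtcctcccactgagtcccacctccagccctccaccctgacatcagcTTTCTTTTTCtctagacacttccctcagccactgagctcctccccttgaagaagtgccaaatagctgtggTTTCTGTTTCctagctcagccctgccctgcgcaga
Tnfaip6: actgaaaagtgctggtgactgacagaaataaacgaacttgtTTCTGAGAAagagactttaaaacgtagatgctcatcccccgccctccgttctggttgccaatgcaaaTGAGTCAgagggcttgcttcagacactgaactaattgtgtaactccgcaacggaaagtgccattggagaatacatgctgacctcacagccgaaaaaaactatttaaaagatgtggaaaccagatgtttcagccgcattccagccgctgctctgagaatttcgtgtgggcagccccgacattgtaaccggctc

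4 motifs were searched on both strands. The core of the interferon-stimulated response element (GAAA, any 2 bases, GAAA) occurred in 3.44% of all 32851 promoter windows, the gamma-activated site TTCNNNGAA in 8.3%, the NF-kB site (GGGA, any 1 base, TTTCC) in 0.411% and the AP-1 site TGAGTCA in 5.2%. In the Lgals9 window the first of these was found on the opposite strand, as TTTCTTTTTC from 55 to 46 bases before the start and as TTTCTGTTTC after the start. Tnfaip6 held TTCTGAGAA from 209 to 201 bases before its start and TGAGTCA from 142 to 136 bases before it. The pattern TTCNNNGAA is its own reverse complement, so that this match counts once for both strands. The other 5 windows held none of these letters, and the NF-kB pattern was in 0 of the 7. A match is a stretch of letters in this window and says nothing of binding.

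Since the filter itself required Pdcd1lg2 and Ido1 to be high in Sub-ASCs, the counts here are over the other 7 genes. Sub-ASCs had the highest mean level of 5 of these 7 (Cd274, Nos2, Ptges, Hgf and Lgals9), where 41.5% of all tested genes were highest in that depot. Ab-ASCs had the highest Lgals1, and their Tnfaip6 was close to that of Sub-ASCs. In PVASCs against Sub-ASCs, the quasi-likelihood test of edgeR, adjusted by Benjamini-Hochberg over all genes tested, called 7 of 7 at 0.05, where 70.4% of all tested genes were called, and 70.8% of the 14811 that had the 3 libraries above the filter level it asks for even without their leading depot. Of these, 1 was higher (Lgals1; 34.7% of all genes were higher) and 6 were lower (35.7% of all genes). The 3 libraries of each depot did not overlap for 7 of 7, against 77.3% of all tested genes, and the median log2 fold change was -1.92 over the 7 and -0.01 over all tested genes. With a log2 fold change of 1 or more in size also required, 6 of the 7 were called in PVASCs against Sub-ASCs (32.2% of all genes), 5 in Ab-ASCs against Sub-ASCs (37.8%) and 4 in PVASCs against Ab-ASCs (15.4%). Ab-ASCs against Sub-ASCs gave 6 calls of 7 (75.3% of all genes), 1 of them higher (37%) and 5 lower (38.3%), with 6 without overlap (76.5%) and a median of -1.22 against -0.03. PVASCs against Ab-ASCs gave 7 calls of 7 (56.9%), 1 higher (24.7%) and 6 lower (32.1%), with 6 without overlap (63.9%) and a median of -1.13 against -0.06. The call of Nos2 in this comparison was lost in some other settings, as given below. Each depot enters 2 of these comparisons, and their values are therefore set side by side below without a test of likeness.

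**Figure D1:**
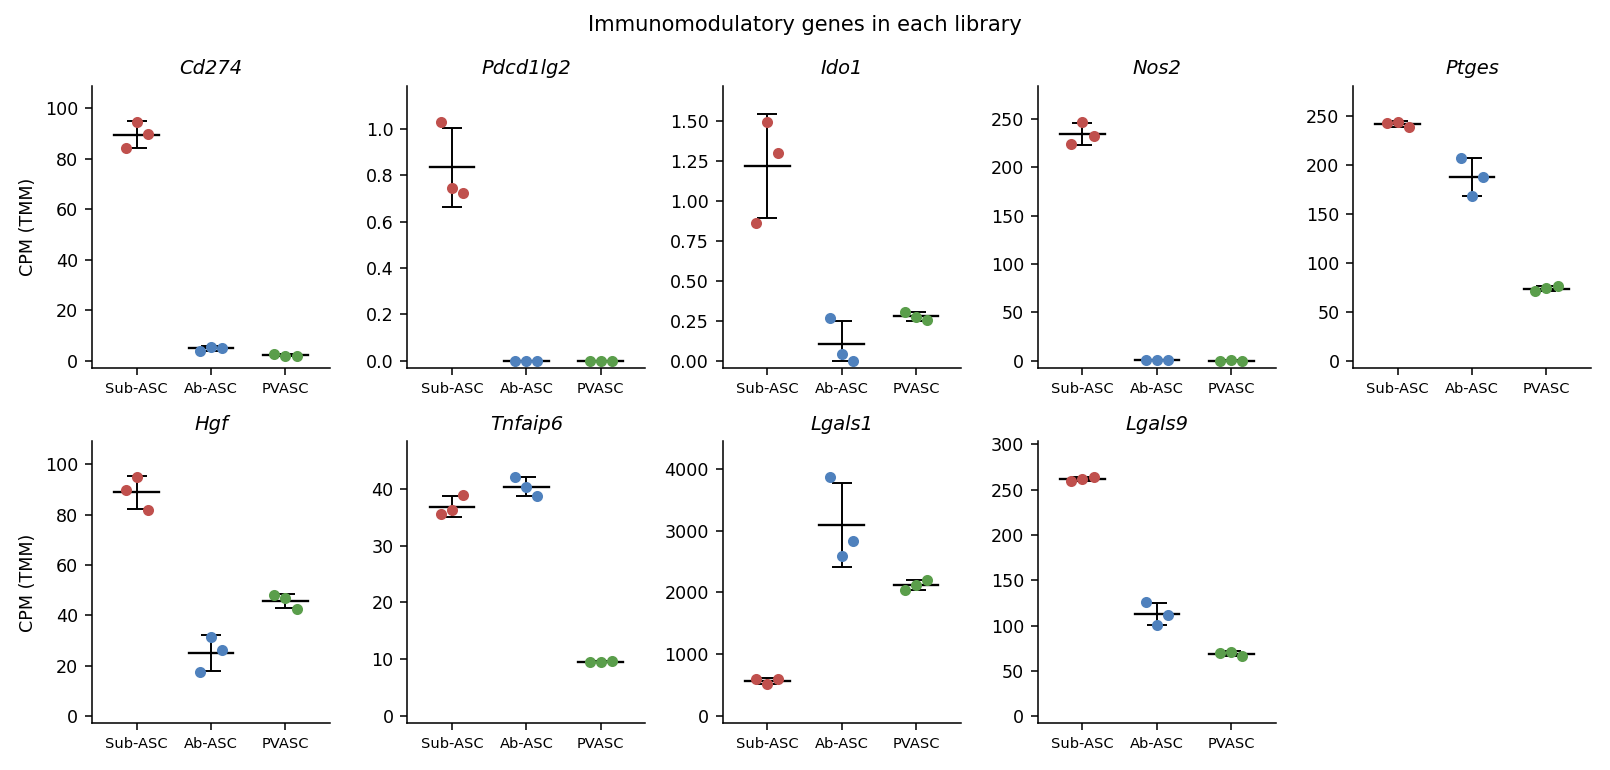
Level of the 9 genes in each library, in CPM on linear axes that begin just below 0 and differ between panels. Points are libraries, long bars the mean and whiskers the SD of 3 libraries (cut at 0). Cd274 and Nos2 are high in the 3 Sub-ASC libraries and near 0 elsewhere, and Lgals1 is lowest there.

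Cd274 encodes PD-L1, the main ligand of the T-cell receptor PD-1, on chromosome 19 (29367455 to 29388095, plus strand). Its level was 84.1, 94.7 and 89.8 CPM in the 3 Sub-ASC libraries, 3.76, 5.60 and 5.17 in the Ab-ASC libraries and 2.84, 1.80 and 2.04 in the PVASC libraries. Each Sub-ASC library stood far above the other 6, and the lowest Ab-ASC library was above the highest PVASC library. Means were 89.5 ± 5.27, 4.84 ± 0.964 and 2.22 ± 0.548 CPM (SD, n = 3). Sub-ASCs exceeded PVASCs 39.9-fold (95% interval 32.0 to 49.8, adjusted p = 6.29e-12) and Ab-ASCs 18.3-fold (14.9 to 22.5, adjusted p = 3.22e-11). PVASCs were also lower than Ab-ASCs, with a log2 fold change of -1.13 (SE 0.18, adjusted p = 0.000223).

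Pdcd1lg2, for PD-L2, the other ligand of PD-1, lies next to it (29410919 to 29471157, plus strand). It had 24, 19 and 19 reads in Sub-ASC libraries and 0 reads in each of the other 6. Its Sub-ASC level was 0.834 ± 0.171 CPM (SD, n = 3), so that PVASCs were at least 8.66-fold lower and Ab-ASCs at least 5.84-fold lower, taking 3 reads in each of the empty libraries as the limit that a count of 0 allows. These limits cover counting error only. Since Pdcd1lg2 passed the filter through Sub-ASCs alone, a difference from them was required, and no p-value is given. PVASCs and Ab-ASCs cannot be compared at this depth. Per kilobase of gene length, Cd274 exceeded Pdcd1lg2 37.1- to 57.6-fold within the Sub-ASC libraries.

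Among 8 tested genes of the other checkpoint ligands and adenosine enzymes, 3 were higher and 5 lower in PVASCs than in Sub-ASCs, 1 higher and 6 lower in Ab-ASCs than in Sub-ASCs, and 4 higher and 2 lower in PVASCs than in Ab-ASCs. Of all tested genes, 70.4%, 75.3% and 56.9% were called in these comparisons, the shares against which this count and those of the lists below are to be read. Vsir, for the checkpoint protein VISTA, had 39.7 to 45.5 CPM in Sub-ASCs, 4.89 to 6.20 in Ab-ASCs and 7.52 to 9.15 in PVASCs, and was 7.81-fold higher in Sub-ASCs than in Ab-ASCs (adjusted p = 1.06e-10). Cd86, a costimulatory ligand, had 1.65 ± 0.177 CPM in Sub-ASCs against 0.0321 ± 0.00168 in PVASCs (SD, n = 3), the latter from 3 reads in all. It could not have passed the filter without its Sub-ASC libraries and is not among the 8. Myeloid cells express both genes, and 10 of 12 macrophage and leukocyte markers were also called higher in Sub-ASCs than in each other depot, a part in these differences that was not tested. Entpd1, the ectoenzyme CD39 that begins the breakdown of extracellular ATP, went the other way, with 51.1 to 55.7 CPM in PVASCs, 11.2 to 12.4 in Sub-ASCs and 3.66 to 5.05 in Ab-ASCs, and PVASCs exceeded Ab-ASCs 12.9-fold (adjusted p = 7.02e-11). Endothelial cells also express this gene, and the summed endothelial markers had the same order of depots, with 6 of 6 called higher in PVASCs than in Ab-ASCs; their part in the difference was not tested. Pdcd1, the receptor itself, had too few reads for the test, with 16 in Sub-ASCs, 1 in Ab-ASCs and 0 in PVASCs.

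**Figure D2:**
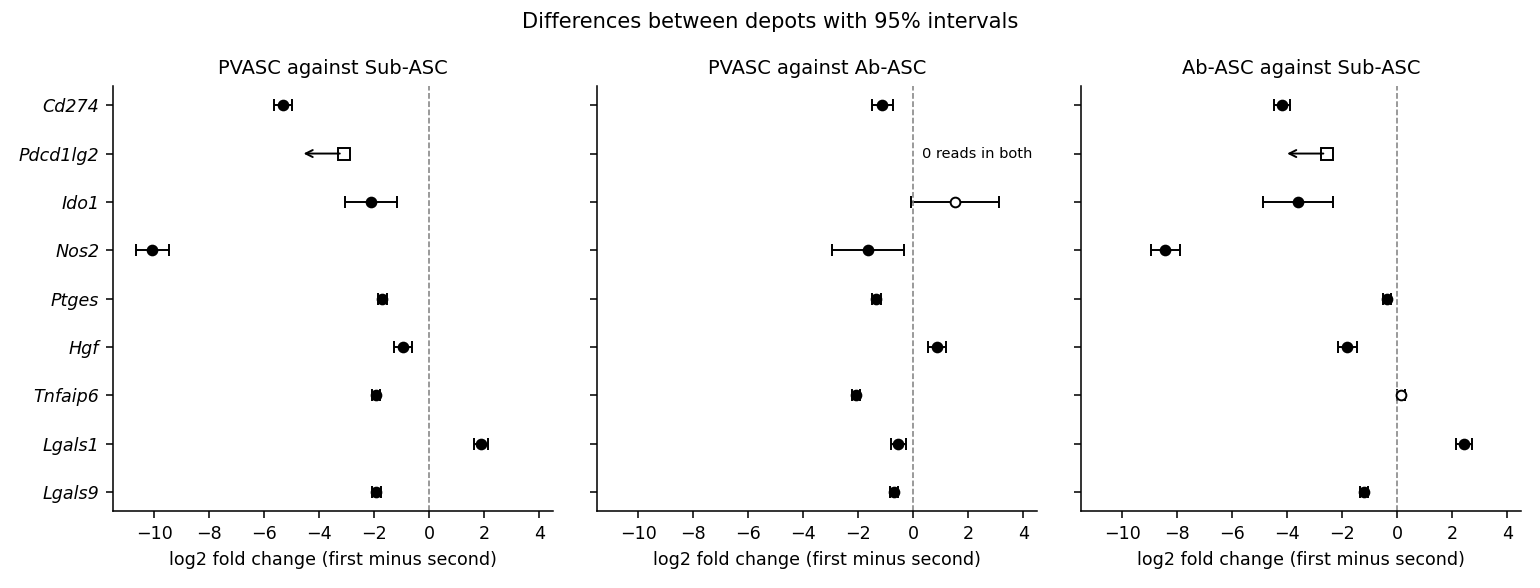
Log2 fold change of each gene in the 3 comparisons of depots, first minus second, with 95% intervals; filled circles passed an adjusted p of 0.05 in edgeR's test, open circles did not, and squares with arrows are limits for Pdcd1lg2. Against Sub-ASCs, Nos2 lies farthest left at -10.07 in PVASCs and -8.43 in Ab-ASCs, and Lgals1 is right of 0. Ido1 and Pdcd1lg2 passed the filter through Sub-ASCs alone, which required their difference from that depot.

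Ido1 encodes indoleamine 2,3-dioxygenase, which starts the breakdown of tryptophan to kynurenine, on chromosome 8 (24584136 to 24597009, minus strand). It had 20, 38 and 34 reads in Sub-ASC libraries, 5, 1 and 0 in Ab-ASC libraries and 10, 8 and 8 in PVASC libraries. The Sub-ASC libraries were above the rest, and replicate 1 of Ab-ASCs lay within the range of CPM of PVASCs. Means were 1.22 ± 0.325, 0.104 ± 0.144 and 0.277 ± 0.0261 CPM (SD, n = 3), near the level of 3 reads outside Sub-ASCs. Sub-ASCs exceeded PVASCs 4.34-fold (95% interval 2.25 to 8.39) and Ab-ASCs 12.3-fold (5.06 to 29.8). Ido1 passed the filter through Sub-ASCs alone, so that a difference from them was required, and no p-value is given for these folds. PVASCs and Ab-ASCs differed by 1.50 on the log2 scale (95% interval -0.10 to 3.10, adjusted p = 0.10), which did not pass the test. Without Ab-ASC replicate 1 this became 3.39 and passed (adjusted p = 0.00583), and the log2 fold change of Ab-ASCs against Sub-ASCs moved from -3.62 to -5.50. Without Ab-ASC replicate 3 the latter was -3.01.

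The other tryptophan dioxygenases were also highest in Sub-ASCs. Tdo2 had 2.45 to 2.97 CPM in Sub-ASCs, 0 to 0.134 in Ab-ASCs and 0.0306 to 0.169 in PVASCs, from 4 reads in all in Ab-ASCs and 7 in PVASCs. It passed the filter through Sub-ASCs alone, so that here too a difference was required. Ido2 had 2.55 to 3.69 CPM in Sub-ASCs and was 5.72-fold higher in PVASCs than in Ab-ASCs (0.652 ± 0.241 against 0.104 ± 0.0926 CPM; SD, n = 3; adjusted p = 0.0031). The tryptophan list also holds the kynurenine-responsive transcription factor Ahr and the tryptophan tRNA synthetase Wars. Over its 8 tested genes without Tdo2, Ido2 included, 2 were higher and 5 lower in PVASCs than in Sub-ASCs, and 2 higher and 3 lower in Ab-ASCs than in Sub-ASCs. Between PVASCs and Ab-ASCs, 2 were higher and 3 lower.

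Nos2 encodes the inducible nitric oxide synthase, which makes nitric oxide from arginine, on chromosome 11 (78920787 to 78960254, plus strand). It had 5232, 6292 and 6090 reads in Sub-ASC libraries, 16, 19 and 8 in Ab-ASC libraries and 6, 14 and 0 in PVASC libraries. Sub-ASCs and the rest were far apart, whereas Ab-ASC and PVASC libraries overlapped. The level was 235 ± 11.5 CPM in Sub-ASCs, 0.687 ± 0.286 in Ab-ASCs and 0.219 ± 0.239 in PVASCs (SD, n = 3). The fitted log2 fold change from Sub-ASCs was -10.07 for PVASCs (SE 0.27, adjusted p = 5.25e-12) and -8.43 for Ab-ASCs (SE 0.25, adjusted p = 1.12e-11), on few reads in the lower groups. The former was -11.21 without PVASC replicate 2 and -9.47 without PVASC replicate 3. PVASCs were lower than Ab-ASCs by edgeR's test (log2 fold change -1.64, SE 0.60, adjusted p = 0.0338), but the call was lost without Ab-ASC replicate 2 (adjusted p = 0.0973) and without PVASC replicates 1 (0.0895) or 3 (0.0611), and the log2 fold change was -2.79 without PVASC replicate 2.

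Genes around this enzyme differed in both directions. Of 10 genes of arginine and ornithine handling, nitric oxide synthesis and the making of its tetrahydrobiopterin cofactor, 6 were higher and 2 lower in PVASCs than in Sub-ASCs, and 5 higher and 3 lower in Ab-ASCs than in Sub-ASCs. Against Ab-ASCs, PVASCs had 3 higher and 6 lower. Ass1, the argininosuccinate synthase that recycles citrulline to arginine, had 52.0 to 56.4 CPM in Sub-ASCs, 609 to 689 in Ab-ASCs and 189 to 213 in PVASCs, 11.8-fold higher in Ab-ASCs than in Sub-ASCs (adjusted p = 3.38e-13). Odc1, which commits ornithine to polyamines, in PVASCs exceeded its Sub-ASC level 6.14-fold (282 ± 10.6 against 45.9 ± 1.07 CPM; SD, n = 3; adjusted p = 5.36e-12). Gch1, needed for the tetrahydrobiopterin cofactor of nitric oxide synthases, had 30.4 to 34.7 CPM in Sub-ASCs, 28.0 to 32.1 in Ab-ASCs and 16.6 to 19.3 in PVASCs. It was 1.85-fold higher in Sub-ASCs than in PVASCs (adjusted p = 9.14e-07), while Sub-ASCs and Ab-ASCs overlapped (log2 fold change -0.15, SE 0.08, adjusted p = 0.126). Nos1, the neuronal synthase, had 2.82 ± 0.0724 CPM in Ab-ASCs and 0.0751 ± 0.0378 in PVASCs (SD, n = 3). It was above the filter level in Ab-ASCs alone and is not among the 10.

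Myeloid cells also express Nos2 and Cd274. Among the 12 macrophage and leukocyte markers, Ptprc, the pan-leukocyte gene for CD45, had a mean of 8.94 CPM in Sub-ASCs, 1.41 in Ab-ASCs and 2.81 in PVASCs, and the macrophage gene Adgre1 had 13.8, 7.29 and 7.52. Of the 12, 10 were called higher in Sub-ASCs than in PVASCs, and the same 10 higher than in Ab-ASCs, with median log2 fold changes over the list of -1.01 in PVASCs and -0.76 in Ab-ASCs, each against Sub-ASCs. The largest folds were 7.11 over PVASCs for Fcgr1 (6.26 against 0.880 CPM, adjusted p = 7.16e-08) and 6.23 over Ab-ASCs for Ptprc (adjusted p = 3.54e-08). The other 2 were called lower in Sub-ASCs, Lyz2 with 163, 271 and 249 CPM and Csf1r with 17.6, 34.1 and 22.9. Without Lyz2 the list summed to 201 to 206 CPM in Sub-ASCs, 120 to 146 in Ab-ASCs and 100.2 to 107 in PVASCs. Against Sub-ASCs, these 10 markers had the direction of Nos2 and Cd274. In PVASCs against Ab-ASCs, where Nos2 and Cd274 were lower, 6 of the 12 were called lower and 2 higher (Ptprc and C1qb). The part of these markers in the differences of Nos2 and Cd274 was not tested.

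**Figure D3:**
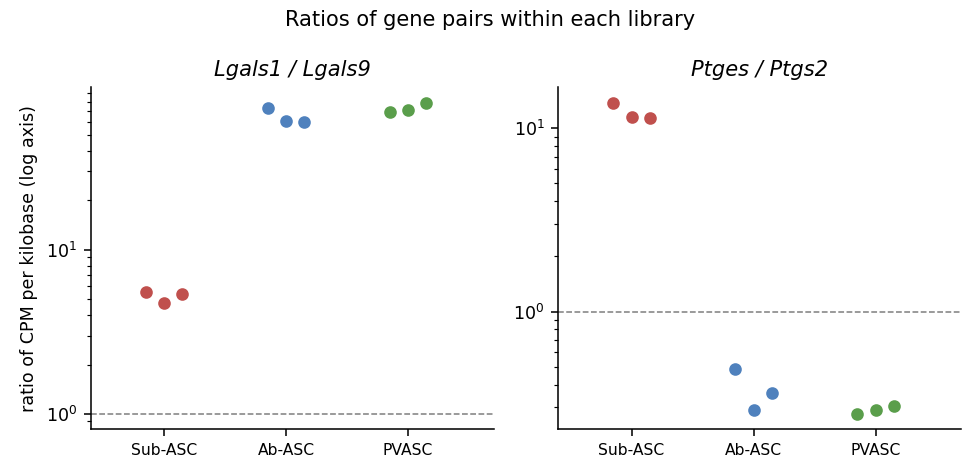
Ratios of Lgals1 to Lgals9 and Ptges to Ptgs2 within each library, from CPM per kilobase, on log axes; the dashed line marks equal levels. Sub-ASC libraries lie apart from the other 6 in both panels, below them for Lgals1 to Lgals9 and above them for Ptges to Ptgs2.

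Ptges encodes the microsomal prostaglandin E synthase that completes prostaglandin E2, on chromosome 2 (30889471 to 30929863, minus strand). It had 243, 244 and 239 CPM in Sub-ASC libraries, 207, 168 and 188 in Ab-ASC libraries and 71.1, 74.1 and 76.4 in PVASC libraries. The depots did not overlap, and PVASCs were well below the others. Means were 242 ± 2.75, 188 ± 19.6 and 73.9 ± 2.67 CPM (SD, n = 3). PVASCs were lower than Sub-ASCs by a log2 fold change of -1.71 (SE 0.07, adjusted p = 3.35e-10) and than Ab-ASCs by -1.35 (SE 0.07, adjusted p = 1.5e-08), while Ab-ASCs were 0.775 times the Sub-ASC level (0.698 to 0.861, adjusted p = 0.000396). The predicted gene Gm13400 overlaps Ptges on the same strand and had 0 to 5 reads in a library, so reads shared by the overlap are uncertain.

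The cyclooxygenases that feed this enzyme had the opposite pattern in Sub-ASCs. Ptgs2, the inducible cyclooxygenase, had 20.6 to 24.8 CPM in Sub-ASCs, 497 to 678 in Ab-ASCs and 293 to 299 in PVASCs, above Sub-ASCs 25.5-fold in Ab-ASCs and 12.7-fold in PVASCs (adjusted p = 2.56e-12 and 1.73e-11). Ptgs1, the constitutive one, had 24.9 to 26.7, 216 to 239 and 205 to 213 CPM, and was above Sub-ASCs 8.63-fold in Ab-ASCs and 8.03-fold in PVASCs (adjusted p = 3.36e-13 and 4.31e-13). The ratio of Ptges to Ptgs2 per kilobase was 11.3 to 13.7 in Sub-ASC libraries, 0.289 to 0.487 in Ab-ASC libraries and 0.277 to 0.304 in PVASC libraries. Hpgd, which inactivates prostaglandin E2, was 49.0-fold higher in Sub-ASCs than in PVASCs (7.04 ± 0.865 against 0.139 ± 0.0186 CPM; SD, n = 3; adjusted p = 1.27e-09). Over the 12 genes of prostaglandin E2 synthesis, breakdown and reception, 7 were higher and 4 lower in PVASCs and 8 higher and 1 lower in Ab-ASCs, each against Sub-ASCs, and 2 higher and 6 lower in PVASCs against Ab-ASCs.

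Hgf encodes hepatocyte growth factor, a mesenchymal ligand for the receptor Met, on chromosome 5 (16553495 to 16620152, plus strand). The libraries had 89.7, 94.8 and 82.0 CPM in Sub-ASCs, 17.5, 31.6 and 26.2 in Ab-ASCs and 48.0, 46.7 and 42.7 in PVASCs. PVASCs lay between the other depots without overlap, and Ab-ASC replicate 1 was the lowest of the 9. Means were 88.8 ± 6.43, 25.1 ± 7.14 and 45.8 ± 2.77 CPM (SD, n = 3). Sub-ASCs exceeded PVASCs 1.94-fold (1.55 to 2.42, adjusted p = 8.07e-05) and Ab-ASCs 3.52-fold (2.79 to 4.44, adjusted p = 3.25e-07). Hgf was the single gene of the 9 called higher in PVASCs than in Ab-ASCs, 1.82-fold (1.44 to 2.29, adjusted p = 0.000511), with log2 fold changes of 0.66 to 1.05 as each library was left out in turn. Predicted genes on the same strand overlap it, Gm43489 with 7 to 34 reads and Gm42975 with 0 to 5 reads in a library, against which shared reads are uncertain.

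Met, its receptor, had 28.3 to 32.1 CPM in Sub-ASCs, 10.04 to 14.7 in Ab-ASCs and 38.2 to 39.3 in PVASCs, and was 2.95-fold higher in PVASCs than in Ab-ASCs (adjusted p = 2.88e-07) and 1.30-fold higher than in Sub-ASCs (adjusted p = 0.00648). Of 7 tested genes for the receptor, its intracellular adaptor Gab1 and the proteases and inhibitors that control activation of the pro-form, 2 were higher and 2 lower in PVASCs than in Sub-ASCs, 2 higher and 3 lower in Ab-ASCs than in Sub-ASCs, and 3 higher and 2 lower in PVASCs than in Ab-ASCs. Spint1, an inhibitor of the activating proteases, was 4.51-fold higher in Ab-ASCs than in Sub-ASCs and 5.54-fold higher than in PVASCs (4.06 ± 0.483, 0.895 ± 0.0430 and 0.728 ± 0.164 CPM; SD, n = 3; adjusted p = 8.28e-07 and 7.98e-07). St14, a protease of the activation step, was low throughout, and PVASCs exceeded Sub-ASCs 1.83-fold (0.663 ± 0.0186 against 0.360 ± 0.169 CPM; SD, n = 3; adjusted p = 0.0493).

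Tnfaip6 encodes TSG-6, a secreted hyaluronan-binding protein that dampens inflammation, on chromosome 2 (52038009 to 52056686, plus strand). It had 35.5, 36.2 and 38.9 CPM in Sub-ASC libraries, 42.0, 40.3 and 38.7 in Ab-ASC libraries and 9.48, 9.56 and 9.64 in PVASC libraries. Sub-ASCs and Ab-ASCs overlapped, and each PVASC library was far below both. Means were 36.9 ± 1.77, 40.3 ± 1.64 and 9.56 ± 0.0809 CPM (SD, n = 3). Sub-ASCs exceeded PVASCs 3.86-fold (3.48 to 4.27, adjusted p = 5.91e-11) and Ab-ASCs exceeded PVASCs 4.22-fold (3.80 to 4.67, adjusted p = 2.39e-10). Ab-ASCs were above Sub-ASCs by 0.13 on the log2 scale (95% interval -0.01 to 0.27, adjusted p = 0.0798) and did not pass the test. Among the 7 genes other than Pdcd1lg2 and Ido1, Tnfaip6 was the 1 that was not called in that comparison.

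Partners of TSG-6 in the hyaluronan matrix differed in both directions. Itih2, one of the heavy chains that TSG-6 transfers onto hyaluronan, had 0.590 to 0.687 CPM in Sub-ASCs, 1.47 to 1.99 in Ab-ASCs and 34.3 to 35.1 in PVASCs, a PVASC excess of 52.5-fold over Sub-ASCs and of 20.4-fold over Ab-ASCs (adjusted p = 5.89e-13 and 2.26e-11). Has2, a hyaluronan synthase, was above Sub-ASCs 5.52-fold in Ab-ASCs and 3.04-fold in PVASCs (adjusted p = 1.7e-08 and 1.05e-06), and Cd44, the hyaluronan receptor, was 2.44-fold and 1.84-fold higher (adjusted p = 7.55e-11 and 2.74e-09). Hmmr, named as a hyaluronan receptor and also a spindle gene of dividing cells, was 14.0-fold higher in Ab-ASCs than in Sub-ASCs (42.2 ± 9.22 against 3.02 ± 1.06 CPM; SD, n = 3; adjusted p = 3.66e-09). Over 11 tested genes, 6 were higher and 2 lower in PVASCs, 6 higher and 4 lower in Ab-ASCs, each against Sub-ASCs, and 5 higher and 4 lower in PVASCs against Ab-ASCs.

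Lgals1 encodes galectin-1, a secreted lectin that binds glycans on activated T cells, on chromosome 15 (78926725 to 78930465, plus strand). Its level was 604, 521 and 602 CPM in Sub-ASC libraries, 3859, 2582 and 2826 in Ab-ASC libraries and 2040, 2121 and 2195 in PVASC libraries. Sub-ASCs were lowest, and the Ab-ASC libraries were above the PVASC libraries with replicate 1 highest. Means were 576 ± 46.8, 3089 ± 678 and 2119 ± 77.5 CPM (SD, n = 3). Against Sub-ASCs, Ab-ASCs were 5.37-fold higher (4.44 to 6.49, adjusted p = 2.57e-09) and PVASCs 3.68-fold higher (3.06 to 4.43, adjusted p = 2.7e-08). PVASCs were lower than Ab-ASCs by a log2 fold change of -0.54 (SE 0.12, adjusted p = 0.00207), and between -0.66 and -0.35 with each library left out. By level per kilobase, Lgals1 ranked 41 of all 54532 genes in Sub-ASCs, 5 in Ab-ASCs and 5 in PVASCs.

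Lgals9 encodes galectin-9, a ligand of the T-cell receptor TIM-3, on chromosome 11 (78962974 to 78984946, minus strand), and its promoter window held the interferon-stimulated pattern given above. It had 259, 262 and 264 CPM in Sub-ASC libraries, 126, 101 and 111 in Ab-ASC libraries and 69.9, 71.0 and 66.1 in PVASC libraries. The depots did not overlap, in the order Sub-ASC, Ab-ASC and PVASC, which is not that of Lgals1. Means were 262 ± 2.31, 113 ± 12.4 and 69.0 ± 2.57 CPM (SD, n = 3). Sub-ASCs exceeded PVASCs 3.79-fold (3.39 to 4.24, adjusted p = 1.44e-10) and Ab-ASCs 2.32-fold (2.08 to 2.59, adjusted p = 9.9e-09), and PVASCs were 0.613 times the Ab-ASC level (0.549 to 0.684, adjusted p = 6.08e-06). The ratio of Lgals1 to Lgals9 per kilobase was 4.71 to 5.51 in Sub-ASC libraries, 60.1 to 72.6 in Ab-ASC libraries and 69.1 to 78.6 in PVASC libraries.

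Havcr2, the gene for TIM-3, had 0.668 to 1.14 CPM in Sub-ASCs, 13.5 to 17.3 in Ab-ASCs and 6.30 to 8.50 in PVASCs, and was 16.8-fold and 8.17-fold higher in Ab-ASCs and PVASCs than in Sub-ASCs (adjusted p = 1.08e-09 and 3.21e-08). Lgals3, for galectin-3, was highest in Sub-ASCs with 606 to 695 CPM, against 124 to 164 in Ab-ASCs and 107 to 114 in PVASCs (adjusted p = 3.43e-10 and 9.87e-11). Among 6 tested genes of other galectins and their partners, 2 were higher and 4 lower in PVASCs and likewise 2 and 4 in Ab-ASCs, each against Sub-ASCs, and in PVASCs against Ab-ASCs 4 were lower and the other 2 did not pass the test. Lgals12, an adipocyte galectin above the filter level in Sub-ASCs alone and not counted here, had 54 reads in Sub-ASCs, 0 in Ab-ASCs and 1 in PVASCs. Lgals7 was 2.06-fold higher in Ab-ASCs than in PVASCs (1.79 ± 0.441 against 0.857 ± 0.244 CPM; SD, n = 3; adjusted p = 0.0250).

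**Figure D4:**
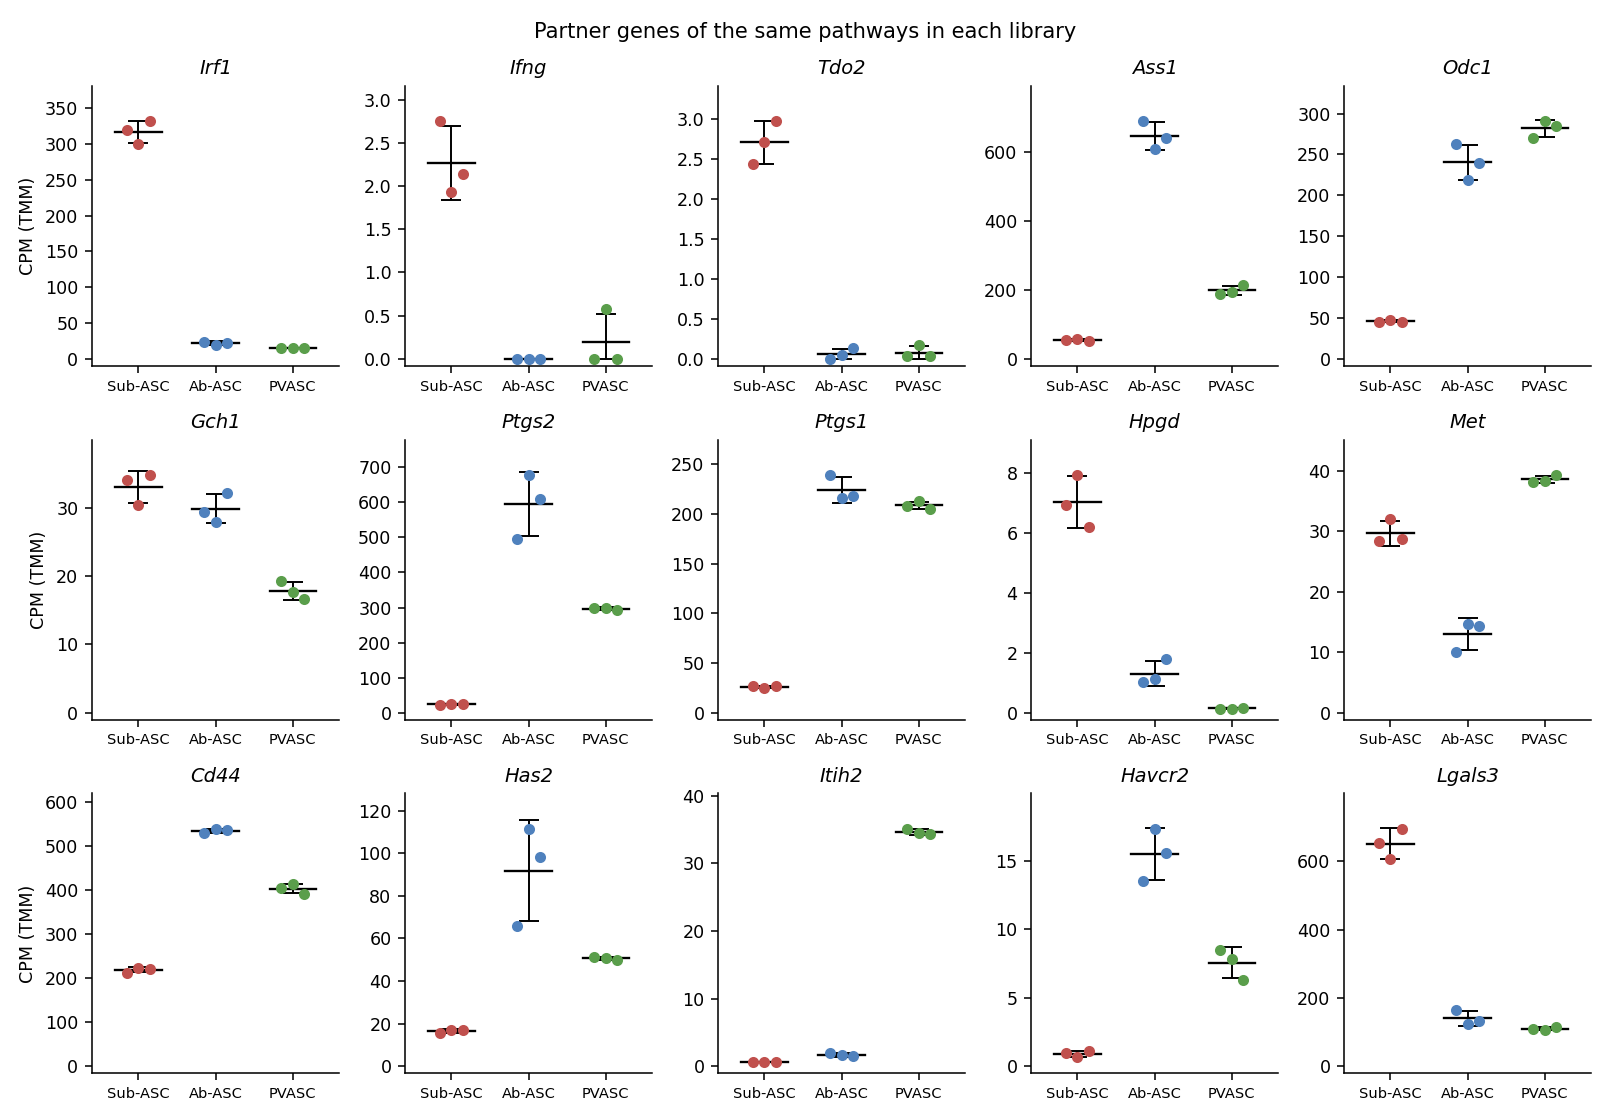
Level of 15 partner genes of the same pathways in each library, in CPM on linear axes that begin just below 0; points are libraries, long bars the mean and whiskers the SD of 3 libraries (cut at 0). Irf1 is high in Sub-ASCs alone, Ptgs1, Ptgs2, Ass1 and Odc1 are low there, and Itih2 is high in PVASCs alone.

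The relative level of the 9 genes within a depot is given per kilobase of gene length. In Sub-ASCs the order was Lgals1 (637 CPM per kilobase), Lgals9 (122), Ptges (61.6), Nos2 (53.2), Cd274 (24.7), Tnfaip6 (21.6), Hgf (12.4), Ido1 (0.666) and Pdcd1lg2 (0.507), and only the last pair overlapped between libraries. In Ab-ASCs, Lgals1 stood at 3421 and was followed by Lgals9 (52.7) and Ptges (47.8), which overlapped, then Tnfaip6 (23.6), Hgf (3.50), Cd274 (1.34), and Nos2 (0.156) and Ido1 (0.0571), which overlapped, as did Ido1 and Pdcd1lg2 at 0. In PVASCs the order was Lgals1 (2346), Lgals9 (32.3), Ptges (18.8), Hgf (6.38), Tnfaip6 (5.59), Cd274 (0.614), Ido1 (0.152) and Nos2 (0.0497), with overlap between Nos2 and Pdcd1lg2 at 0. Lgals1 made up 68.2% of the sum over the 9 genes in Sub-ASCs, 96.4% in Ab-ASCs and 97.4% in PVASCs. Nos2 held rank 4 of 9 in Sub-ASCs, 7 in Ab-ASCs and 8 in PVASCs.

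Cd274, Ido1 and Nos2 are known targets of interferon gamma, and genes of its signalling path were listed beside them. Of 8 such genes, 7 were lower and 1 higher in PVASCs than in Sub-ASCs, with a median log2 fold change of -1.45, where 35.7% of all tested genes were lower and 34.7% higher. In Ab-ASCs against Sub-ASCs, 7 were lower and 1 higher, with a median of -1.17, where 38.3% of all tested genes were lower and 37% higher. The gene that was higher was Ifngr2, a receptor subunit. Irf1, a transcription factor that interferon gamma induces, had 301 to 331, 19.7 to 24.2 and 15.0 to 15.3 CPM, 14.4-fold and 20.9-fold higher in Sub-ASCs (adjusted p = 3.81e-13 and 1.61e-13). Ifng, the cytokine gene, had 64, 49 and 56 reads in Sub-ASC libraries, 0 in each Ab-ASC library, and 0, 17 and 0 in PVASC libraries. Without these Sub-ASC libraries it could not have passed the filter, and it is not among the 8. Lymphocytes are its known source, and Ptprc was 3.17-fold higher in Sub-ASCs than in PVASCs and 6.23-fold higher than in Ab-ASCs, with 10 of 12 macrophage and leukocyte markers called in this direction in each comparison; their part in the differences of this list was not tested. Between PVASCs and Ab-ASCs, 4 of the 8 were lower and the other 4 did not pass the test, with a median of -0.12.

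The path from interleukin-1 and TNF to NF-kB is the other known input to these genes. Of 10 tested genes, 9 were lower in PVASCs than in Sub-ASCs and the other 1 did not pass the test (median log2 fold change -0.89; 35.7% of all tested genes were lower). In PVASCs against Ab-ASCs, 7 were lower and the other 3 did not pass (median -0.59; 32.1% of all tested genes were lower). In Ab-ASCs against Sub-ASCs, 3 were higher and 5 lower (37% and 38.3% of all tested genes). Tnf was 6.15-fold higher in Sub-ASCs than in PVASCs (2.72 ± 0.191 against 0.438 ± 0.0619 CPM; SD, n = 3; adjusted p = 4.21e-07). Il1a was 11.2-fold higher in Ab-ASCs than in PVASCs (5.62 ± 1.46 against 0.502 ± 0.0220 CPM; SD, n = 3; adjusted p = 2.64e-07) and 6.90-fold higher than in Sub-ASCs (adjusted p = 4.03e-07).

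A last list held other secreted or surface mediators of mesenchymal stem cells. Of 11 genes, 5 were higher and 6 lower in PVASCs than in Sub-ASCs, 7 higher and 4 lower in Ab-ASCs than in Sub-ASCs, and 6 higher and 5 lower in PVASCs than in Ab-ASCs. Cxcl12, a chemokine that retains lymphocytes and stem cells, had 5946 ± 194 CPM in Sub-ASCs, 271 ± 7.53 in Ab-ASCs and 491 ± 4.79 in PVASCs (SD, n = 3), 21.9-fold higher in Sub-ASCs than in Ab-ASCs (adjusted p = 8.52e-15). Il10, an inhibitory cytokine, had 31 reads in Sub-ASCs, 25 in Ab-ASCs and 1 in PVASCs. It could not have passed the filter without its Ab-ASC libraries and is not among the 11.

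**Figure D5:**
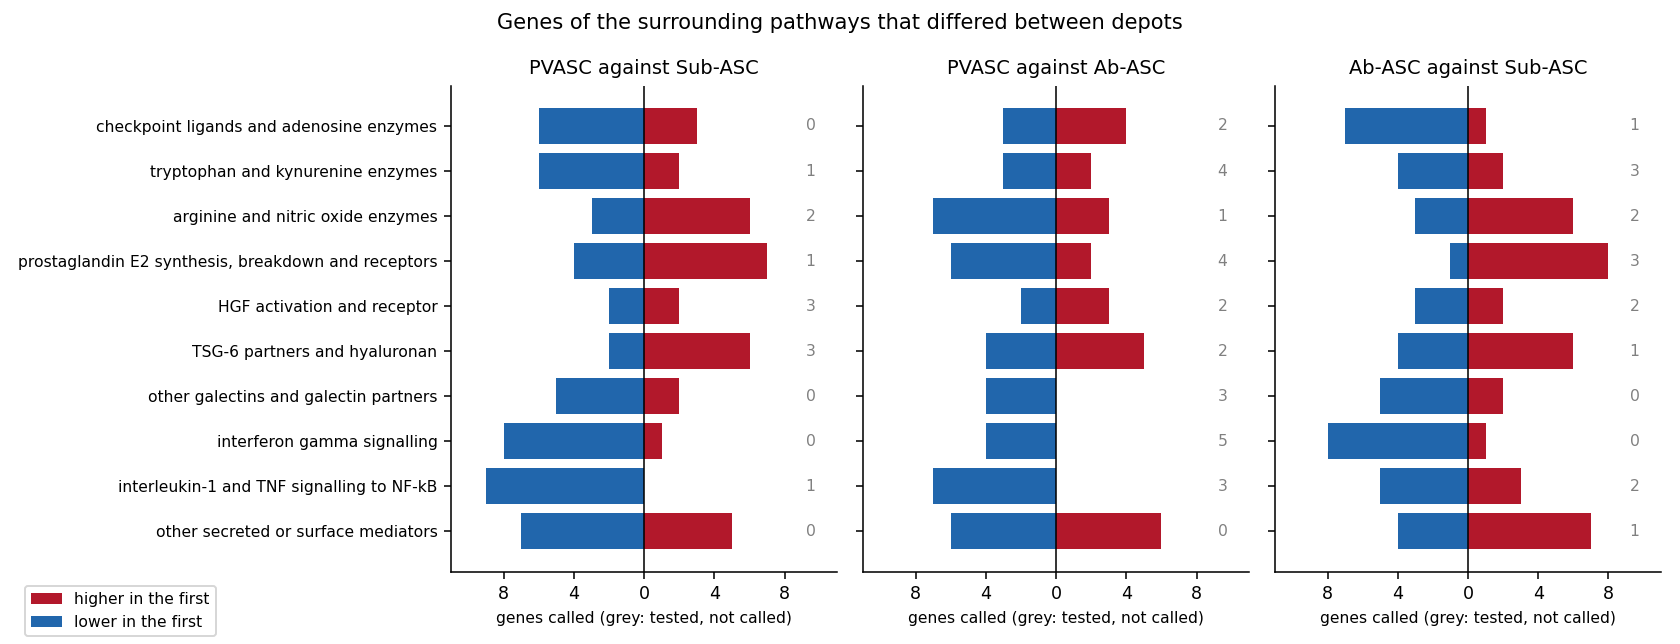
Genes of 10 lists around these mediators called in each comparison of depots by edgeR's test; red bars to the right count genes higher in the first depot, blue bars to the left genes lower in it, and grey numbers genes tested and not called; Cd86, Tdo2, Nos1, Lgals12, Ifng and Il10, which could not have passed the filter without their leading depot, are included here. Interferon gamma signalling has 8 lower genes (Ifng included) against Sub-ASCs in both PVASCs and Ab-ASCs, and the prostaglandin list has 7 and 8 higher ones.

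For each of the 9 genes, the tested genes with the nearest pattern over the 9 libraries were found by the mean absolute difference of centred log2(CPM + 0.5). Nearest to Cd274 were Mcoln2 (0.12) and Cfb (0.16), both high in Sub-ASCs, with 90.8 and 15.8 CPM there. Nos2 was nearest to the chemokine gene Ccl8 (0.23) and to Ggt5 (0.34), with 502 and 424 CPM in Sub-ASCs and at most 1.81 in the other depots, and Ido1 to Scg2 (0.11) and Reck (0.12). Pdcd1lg2 was nearest to Igkv1-135 and Myl1, each near 0 outside Sub-ASCs as well.

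Lgals1 was nearest to S100a6 (0.055) and Gins2 (0.064), Lgals9 to Srpx2 (0.035) and Efemp2 (0.056), and Ptges to Ccl9 (0.044) and Ttc39c (0.063). Tnfaip6 was nearest to Zc3h12a (0.096) and Smoc2 (0.098), which were lowest in PVASCs, and Hgf to Alms1 (0.081) and Rpgrip1l (0.086). These distances describe 9 libraries from 3 depots and carry no test.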

How the data were processed

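Cultured mouse ASCs of 3 depots were compared by bulk RNA sequencing, with 3 libraries a depot. The authors deposited raw counts per gene, without normalization, with gene length and position. The submitters' processing notes name CASAVA 1.8, Bowtie 0.12.2 and featureCounts 1.5.0-p3 and the builds mm8 and mm10; strandedness and the annotation release are not given in the sources used here. Libraries were made from total RNA with a NEBNext Ultra kit per the labels. Groups were taken from the tissue label, and 0 sample columns were left unmapped.

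The genes, the pathway lists and the marker lists were chosen with earlier results of these data known. Of 10 genes chosen by name, 9 are described, and the remaining one and some pathway genes are not reported here; counts and medians leave them out. Genes with few reads were filtered by filterByExpr (minimum count 10), TMM scaled the library sizes, and 1 fit without covariates held all 9 libraries, in edgeR 4.0.16 (R 4.3.3, limma 3.58.1). The quasi-likelihood F-test was adjusted by Benjamini-Hochberg over 16526 genes, with a threshold of 0.05. The SE is the log2 fold change divided by the square root of F, and intervals are at 95%. The fit was first tested on simulated data holding 200 changed genes. Named were the 9 genes, in each list the called gene with the largest change in each comparison, partners (Pdcd1, Irf1, Gch1, Ptgs2, Ptgs1, Met, Cd44, Has2, Havcr2 and Lgals3), and the 2 tested genes nearest in pattern to each of the 9. Ifngr2, the single gene of its list in its direction, and the markers given by name were chosen after their values were seen, and Ahr, Wars and Gab1 were named to describe their lists.

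Alternatives were DESeq2 1.42.0, RLE size factors, no filter on low counts, a minimum of 10 reads in every library, a fit of the compared groups alone, a replicate block, a log2 fold change of 1 or more in size, and each library left out. Promoters are those of RefSeq on GRCm38.p6. Tables and figures used Python 3.11.15, pandas 2.3.3, numpy 2.4.6 and matplotlib 3.10.9.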

Additional observations from a re-analysis of the deposited data

How the results depend on the processing

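Among 407 values for the 9 genes over 16 settings, 396 kept their direction and their side of the threshold, 10 no longer passed, 1 newly passed and 0 reversed. They include values of Pdcd1lg2 and Ido1 against Sub-ASCs, for which the filter required a difference. Calls for single genes of the pathway lists were not rerun under these settings. With a log2 fold change of 1 or more in size required, 5328 genes were called in PVASCs against Sub-ASCs. The number was 2551 for PVASCs against Ab-ASCs, while Ab-ASCs against Sub-ASCs gave 6241. Without this cut, 11628, 9396 and 12442 were called, in the same order. Calls among the 9 genes are counted here over the 7 other than Pdcd1lg2 and Ido1. With the cut, 6, 4 and 5 of these 7 were called in place of 7, 7 and 6. By construction the cut dropped Hgf in the first comparison, Hgf, Lgals1 and Lgals9 in the second and Ptges in the last. Nos2 in PVASCs against Ab-ASCs also missed the threshold with DESeq2 (log2 fold change -1.63, adjusted p = 0.0815) and in a fit of only the groups compared (-1.57, adjusted p = 0.114); the cause was not tested. A minimum of 10 reads in every library left 6, 6 and 5 calls, since Pdcd1lg2, Ido1 and Nos2 were no longer tested.

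With each library left out in turn, genes called ranged from 10954 to 12736 in PVASCs against Sub-ASCs and 8294 to 9675 in PVASCs against Ab-ASCs. The range was 11976 to 12714 for Ab-ASCs against Sub-ASCs. The replicate block gave 11458, 9183 and 12302 genes, in the same order. In PVASCs against Ab-ASCs, 6 to 8 of the 9 genes were called with a library left out and 7 with the block. In PVASCs against Sub-ASCs, each of the 7 genes other than Pdcd1lg2 and Ido1 was called in all of these runs. For Ab-ASCs against Sub-ASCs no count is given, since the runs were not counted without Pdcd1lg2 and Ido1. Same-numbered libraries of different depots deviated together weakly or not at all (correlations 0.0146 to 0.0268 for PVASCs and Sub-ASCs, -0.0501 to -0.0224 for PVASCs and Ab-ASCs, -0.112 to 0.195 for Ab-ASCs and Sub-ASCs). Differently numbered libraries of Ab-ASCs and Sub-ASCs gave -0.239 to 0.209. These values cannot show whether libraries with the same number share a mouse, culture or batch, which the labels do not give. Other scalings moved the median of all genes by less than 0.1 on the log2 scale. Depth limited Pdcd1lg2, Ido1 and Nos2 outside Sub-ASCs, where a library held at most 19 reads.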
